A study of Mus musculus with 12 samples.

Results

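The genes described here are Aqp7, Hcar1, Adrb3, Gpd1, Pck1, Car3 and Slc6a13, a set built around glycerol and lactate handling in fat cells. They were taken by symbol from a table of 19938 measured mouse genes, and members of the set were chosen by their lower log2 values with parathyroid hormone (PTH) than with vehicle after irradiation. Of the 7 genes, 6 had 1 array row each and were measured, and Adrb3, a beta-adrenergic receptor of fat cells, was not analysed here. Gene expression was measured on 12 arrays, with RNA from the marrow of B6 mouse long bones. Each of 4 groups had 3 arrays: irradiated PTH, irradiated vehicle, nonirradiated PTH and nonirradiated vehicle. Irradiation was sub-lethal and was given at 10 days of age as 2 fractions of 310 cGy. The 5 days of PTH or vehicle ran over days 11 to 15 of age, and all mice were 16 days old at collection. Whether each array holds 1 mouse or a pool is not stated in the labels, so the p-values reflect array-to-array spread that could in part be technical.

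White fat cells store triglyceride and release it by lipolysis, in which a rise in cAMP activates protein kinase A and the lipases of the lipid droplet, and fatty acids and glycerol leave the cell. Aqp7 is the aquaporin through which glycerol leaves fat cells. Hcar1 is a receptor for lactate that couples to an inhibitory G protein and lowers cAMP in fat cells, and the PTH receptor couples to the stimulatory G protein. Gpd1 and Pck1 act in the opposite branch, since Gpd1 makes the glycerol 3-phosphate backbone of new triglyceride from a glycolytic intermediate, and Pck1 (phosphoenolpyruvate carboxykinase) feeds that step from pyruvate and related precursors in fat, liver and kidney. Car3 is a cytosolic carbonic anhydrase abundant in fat and skeletal muscle. Slc6a13 is a transporter of GABA and taurine known from liver, kidney and the coverings of the brain. Marrow holds its own fat cells, and irradiation is known to raise their number.

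Upstream sequence of the mouse genes was read from RefSeq (build GRCm38.p6) for the 250 bases before each annotated start, to show which short motifs known from fat cell and cAMP-regulated genes are spelled there. Of the 6 measured members, 4 had such sequence, with 7 annotated starts in all. The motifs searched on both strands were AGGTCA, the core site of nuclear receptors such as the fat cell regulator PPAR gamma, its direct repeat AGGTCANAGGTCA, the cAMP response element TGACGTCA and its core TGACG, the TATA motif TATAAA, and TTNNGNAA, the pattern of C/EBP factors. The cAMP response element contains its core, so the same bases can match both. The motif AGGTCA was found before starts of 2 of the 4 members, Aqp7 and Slc6a13. It was in 3 of the 7 member sequences and in 14% of all 32851 upstream sequences. The Aqp7 sequences overlap and share a match. TGACG was found in Pck1 alone of the 4, in 1 of the 7 member sequences and in 17.8% of all sequences. TTNNGNAA was found in Aqp7, Pck1 and Slc6a13, in 4 of the 7 member sequences and in 36.8% of all sequences. The full AGGTCANAGGTCA, TGACGTCA and TATAAA were in none of the 7 member sequences, and in 0.0335%, 1.55% and 12.4% of all sequences. The sequences of the glycerol channel, the lactate receptor and the carboxykinase are shown 5′ to 3′ as the most upstream start of each gene, with AGGTCA and TGACG, or their reverse complements, in capitals.
Aqp7 (chr4:41048137-41048386, minus strand): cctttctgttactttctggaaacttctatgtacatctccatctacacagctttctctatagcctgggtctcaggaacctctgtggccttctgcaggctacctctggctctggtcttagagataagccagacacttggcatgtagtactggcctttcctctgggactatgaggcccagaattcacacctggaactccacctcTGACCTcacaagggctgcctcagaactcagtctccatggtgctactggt
Hcar1 (chr5:123880004-123880253, minus strand): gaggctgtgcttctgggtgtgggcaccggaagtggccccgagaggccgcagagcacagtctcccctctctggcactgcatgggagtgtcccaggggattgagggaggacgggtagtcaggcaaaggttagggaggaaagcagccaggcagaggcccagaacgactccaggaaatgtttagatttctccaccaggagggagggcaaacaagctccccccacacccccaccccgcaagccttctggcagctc
Pck1 (chr2:173152823-173153072, plus strand): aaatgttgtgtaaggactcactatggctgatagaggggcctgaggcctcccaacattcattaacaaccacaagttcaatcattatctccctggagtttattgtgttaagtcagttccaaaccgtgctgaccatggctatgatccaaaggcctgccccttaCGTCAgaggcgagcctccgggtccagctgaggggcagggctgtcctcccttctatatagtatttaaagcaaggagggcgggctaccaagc
The capitals in Aqp7 lay -49 to -44 bases from the start and those in Pck1 -90 to -86, and Hcar1 held neither motif. These matches describe letters and are not evidence of binding.

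Values are log2 expression as deposited, so a difference of 1 is a doubling. The arrays showed the sex of the mice through Xist and the Y-linked genes Kdm5d, Uty and Eif2s3y, and sex was not even between groups. Arrays with the female pattern were 1 of 3 irradiated PTH, 1 of 3 irradiated vehicle, 3 of 3 nonirradiated PTH and 0 of 3 nonirradiated vehicle arrays. In both irradiated groups the female-pattern array was replicate 1, so the arrays of these groups were not all repeats of 1 RNA sample. Irradiated PTH replicate 3 and nonirradiated vehicle replicate 3 stood apart by a narrow spread of values, with interquartile ranges of 2.88 and 2.86, against 3.13 to 3.25 on the other arrays. For the labelled tissue, Tfrc, the transferrin receptor of red cell precursors, had a mean of 12.41 over all arrays, and S100a8, a neutrophil protein, 12.12.

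Irradiation raised 5 of the 6 measured members when both treatments were averaged, by 1.01 to 1.56 on the log2 scale, which is about 2- to 3-fold. Of all genes tested, 2.51% were higher, 3.59% lower and 6.1% changed in either direction in this comparison (limma's moderated test, Benjamini-Hochberg adjusted p under 0.05). The averaged difference is orthogonal to the PTH difference after irradiation on which members were chosen. For PTH against vehicle in nonirradiated mice, the difference of means uses no irradiated array. These comparisons therefore carry the tests. The spread in both tests was pooled over all groups, so their p-values and intervals also draw on the irradiated arrays on which members were chosen. Without irradiation no member differed between PTH and vehicle by this test.

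Aqp7 had 7.84, 7.53 and 6.32 in irradiated PTH marrow, 8.96, 8.54 and 7.80 in irradiated vehicle marrow, 6.28, 6.20 and 6.22 in nonirradiated PTH marrow and 6.30, 6.48 and 6.17 in nonirradiated vehicle marrow. The irradiated vehicle arrays were all above the nonirradiated arrays, while irradiated PTH replicate 3, at 6.32, lay within the nonirradiated range. Averaged over both treatments, Aqp7 was 2.94-fold higher in irradiated marrow (log2 difference 1.56, SE 0.246, limma adjusted p = 0.00229). This was the largest rise among the 6 members, and its arrays spread widely, with means of 7.23 ± 0.798 in irradiated PTH marrow and 8.43 ± 0.589 in irradiated vehicle marrow (SD, n = 3).

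Hcar1 had 6.24, 5.89 and 5.63 in irradiated PTH marrow, 7.28, 6.77 and 6.75 in irradiated vehicle marrow, 5.38, 5.14 and 5.21 in nonirradiated PTH marrow and 5.21, 5.72 and 5.34 in nonirradiated vehicle marrow. All 3 irradiated PTH arrays were below all 3 irradiated vehicle arrays, and the lowest of them, 5.63, lay under the highest nonirradiated vehicle array. The averaged rise with irradiation was 2.13-fold (log2 difference 1.09, SE 0.140, limma adjusted p = 0.000531). On the nonirradiated arrays Hcar1 was dim, between the 25.25 percentile of the array (PTH replicate 2) and 35.76 (vehicle replicate 2).

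Of the enzymes that supply glycerol 3-phosphate, Gpd1 had 7.21, 6.80 and 6.85 in irradiated PTH marrow, 7.75, 7.78 and 7.12 in irradiated vehicle marrow, 6.28, 6.10 and 6.13 in nonirradiated PTH marrow and 6.23, 6.48 and 6.20 in nonirradiated vehicle marrow. Pck1 had 7.36, 6.71 and 6.69 in irradiated PTH marrow, 8.33, 7.71 and 7.12 in irradiated vehicle marrow, 5.81, 6.16 and 6.05 in nonirradiated PTH marrow and 6.03, 6.27 and 6.33 in nonirradiated vehicle marrow. For both genes every irradiated array was above every nonirradiated array, which was so for 1.69% of all genes in this direction and for 2.8% in the other, and the ranges of irradiated PTH and irradiated vehicle marrow overlapped. The averaged rise was 2.02-fold for Gpd1 (log2 difference 1.01, SE 0.129, limma adjusted p = 0.000524). For Pck1 it was 2.32-fold (log2 difference 1.21, SE 0.190, limma adjusted p = 0.00214).

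Car3 had 11.53, 11.14 and 10.38 in irradiated PTH marrow, 12.12, 11.99 and 11.78 in irradiated vehicle marrow, 10.74, 10.10 and 10.29 in nonirradiated PTH marrow and 10.45, 10.34 and 10.46 in nonirradiated vehicle marrow. The irradiated vehicle arrays stood above all others, and the irradiated PTH arrays reached down into the nonirradiated range. Its averaged rise with irradiation was 2.13-fold (log2 difference 1.09, SE 0.177, limma adjusted p = 0.00264). Slc6a13 had 5.62, 5.44 and 5.12 in irradiated PTH marrow, 6.30, 6.10 and 6.17 in irradiated vehicle marrow, 5.17, 5.48 and 5.19 in nonirradiated PTH marrow and 5.68, 5.40 and 5.50 in nonirradiated vehicle marrow. Only the irradiated vehicle arrays stood apart, and its nonirradiated and irradiated PTH ranges overlapped. Slc6a13 was dim on all arrays, from the 23.26 percentile of the array in irradiated PTH replicate 3 to 46.18 in irradiated vehicle replicate 1. The averaged difference of Slc6a13 was 0.39 (SE 0.106) and did not pass (limma adjusted p = 0.0511), although it passed without irradiated PTH replicate 3 (0.46, adjusted p = 0.013), without nonirradiated vehicle replicate 1 (0.43, adjusted p = 0.0432) and without nonirradiated PTH replicate 2 (0.44, adjusted p = 0.0433). It also passed with the replicate number as a block (adjusted p = 0.0479) and with sex as a term (adjusted p = 0.0314). It did not pass in the other 9 of the 12 fits that left out 1 array. Nor did it pass with quantile normalization repeated (limma adjusted p = 0.066) or arrays centred on housekeeping genes (0.0666). Scaling arrays to one median and interquartile range gave 0.0677.

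**Figure D1:**
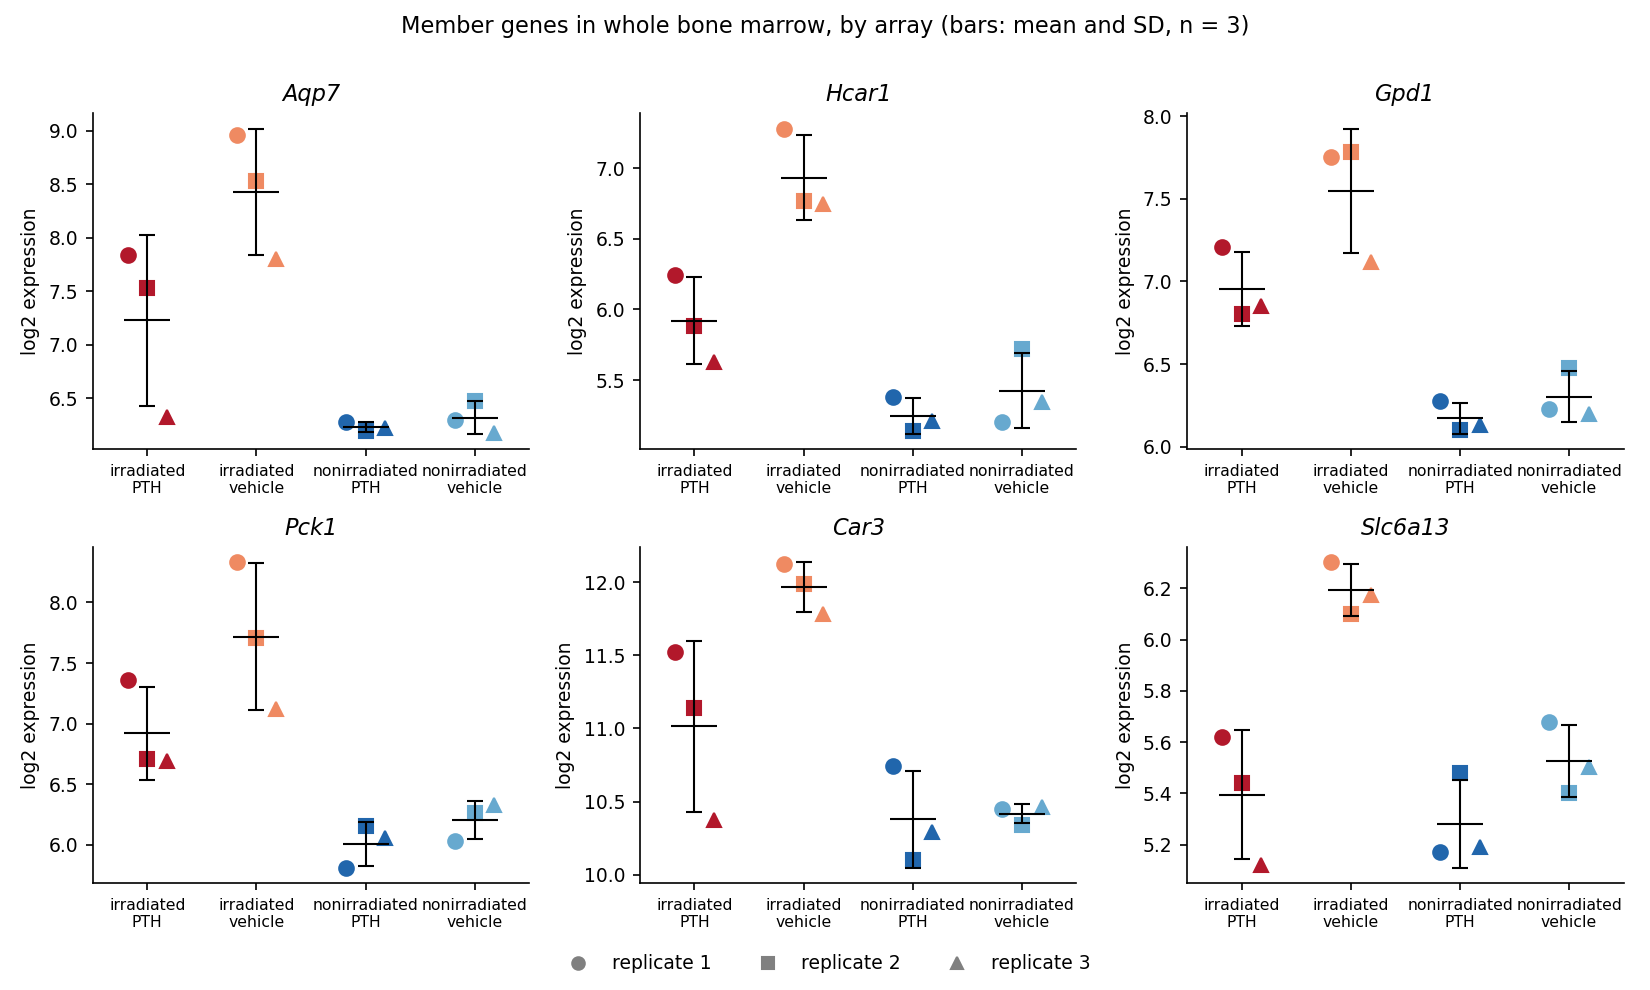
Log2 expression of each measured member on every array, with groups along the x axis, a symbol for each replicate number, and bars for the mean and SD of 3 arrays. Irradiated vehicle arrays are the highest group in all 6 panels, and the irradiated PTH arrays of Aqp7, Hcar1, Car3 and Slc6a13 reach down into the range of nonirradiated vehicle arrays.

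The order of group means was irradiated vehicle, irradiated PTH, nonirradiated vehicle and nonirradiated PTH, from high to low, for 5 members. For Slc6a13 the irradiated PTH mean (5.39 ± 0.252, SD, n = 3) lay under the nonirradiated vehicle mean (5.53 ± 0.140). Neighbours in this order were often within their spread. Irradiated PTH and irradiated vehicle ranges overlapped for 3 of 6 members (Aqp7, Gpd1 and Pck1). Irradiated PTH arrays lay wholly above the nonirradiated PTH arrays for 4 members (8.93% of all genes) and wholly above the nonirradiated vehicle arrays for Gpd1 and Pck1 (5.53% of all genes). Irradiated PTH and nonirradiated vehicle ranges overlapped for Aqp7, Hcar1, Car3 and Slc6a13, and nonirradiated PTH and nonirradiated vehicle ranges for all 6, where PTH ranges were wholly higher for 3.21% and wholly lower for 3.62% of all genes. Irradiated vehicle arrays lay wholly above the nonirradiated PTH arrays for all 6 (8.98% of all genes). They also lay wholly above the nonirradiated vehicle arrays for all 6 (8.95% of all genes). Comparisons between a pair of groups that include an irradiated group share arrays with the contrast on which members were chosen. Unlike the averaged difference, they are not orthogonal to it. They are therefore descriptions and were not tested.

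The difference between PTH and vehicle after irradiation is the contrast on which members were chosen, and it is given as a description. All 6 values were negative, with a median of -0.87, where the median of all genes was 0.01. Of all 19938 genes, 0 passed limma's test in this contrast. Aqp7 was 2.30-fold lower with PTH (log2 difference -1.20, SE 0.348) and Hcar1 2.02-fold lower (-1.01, SE 0.197). Car3 differed by -0.95 (SE 0.250), Slc6a13 by -0.80 (SE 0.149), Pck1 by -0.80 (SE 0.269) and Gpd1 by -0.60 (SE 0.183). The 3 PTH arrays lay wholly below the 3 vehicle arrays for Hcar1, Car3 and Slc6a13, as they did for 4.25% of all genes, and wholly above for 5.48%. In bulk marrow, fewer cells of a type and less RNA per cell cannot be told apart.

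The same contrast is given by sex pattern as a description. In the single female-pattern array of each irradiated group, the PTH minus vehicle difference was -1.13 for Aqp7, -1.04 for Hcar1 and -0.54 for Gpd1. Among the 2 male-pattern arrays of each group, the mean difference was -1.24 for Aqp7, -1.13 for Car3 and -0.62 for Gpd1. Over both patterns, the differences were smaller without irradiated PTH replicate 3, the narrow-range array, at -0.75 for Aqp7 and -0.63 for Car3, against -1.20 and -0.95 with it. Pck1 was -0.49 without irradiated vehicle replicate 1, against -0.80 with it. Replicate 1 was the highest array for all 6 members in irradiated PTH marrow and for 5 of 6 in irradiated vehicle marrow, and replicate 3 was the lowest for 5 of 6 in both groups. The part of sex in this order was not tested.

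Over all arrays, the difference between irradiated and nonirradiated marrow was smaller in PTH-treated than in vehicle-treated mice for all 6 members, but sex was uneven between these groups. With sex as a term Pck1 turned round, at 1.44 in PTH-treated and 1.25 in vehicle-treated mice. Aqp7 then had a narrower gap, at 1.57 in PTH-treated and 1.83 in vehicle-treated mice. These differences share arrays with the contrast used to choose members, are not orthogonal to it and were therefore not tested. Without a sex term, Aqp7 differed by 0.997 between irradiated and nonirradiated marrow in PTH-treated mice and by 2.11 in vehicle-treated mice. The same values were 0.68 and 1.51 for Hcar1 in PTH-treated and vehicle-treated mice. Slc6a13 differed by 0.11 in PTH-treated mice, with a 95% confidence interval of -0.21 to 0.44, and by 0.67 in vehicle-treated mice. Within male-pattern arrays of vehicle-treated mice (2 irradiated and 3 nonirradiated), the rise was 1.85 for Aqp7, 1.34 for Hcar1, 1.15 for Gpd1, 1.20 for Pck1, 1.47 for Car3 and 0.61 for Slc6a13. Within female-pattern arrays of PTH-treated mice (1 irradiated and 3 nonirradiated), it was 1.60 for Aqp7, 1.0 for Hcar1, 1.04 for Gpd1, 1.35 for Pck1, 1.15 for Car3 and 0.34 for Slc6a13.

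In nonirradiated mice, 0 of the 6 members were called between PTH and vehicle, and limma called 0 of 19938 genes (0%), where 356 had an unadjusted p under 0.05. All 6 differences were small and negative, from -0.25 for Slc6a13 to -0.04 for Car3, and each adjusted p was 1. The 95% confidence interval of the difference was -0.84 to 0.67 for Aqp7 and -0.61 to 0.25 for Hcar1. These intervals rest on a spread pooled with the irradiated groups. For Aqp7 the SD was 0.0452 in nonirradiated PTH and 0.153 in nonirradiated vehicle marrow. It was 0.798 in irradiated PTH and 0.589 in irradiated vehicle marrow. All nonirradiated PTH arrays had the female pattern and all nonirradiated vehicle arrays the male pattern, so sex and treatment cannot be told apart within these groups. With sex as a term estimated from the irradiated groups, the differences ran from -0.99 for Pck1 to -0.47 for Gpd1, and every adjusted p stayed at 1.

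**Figure D2:**
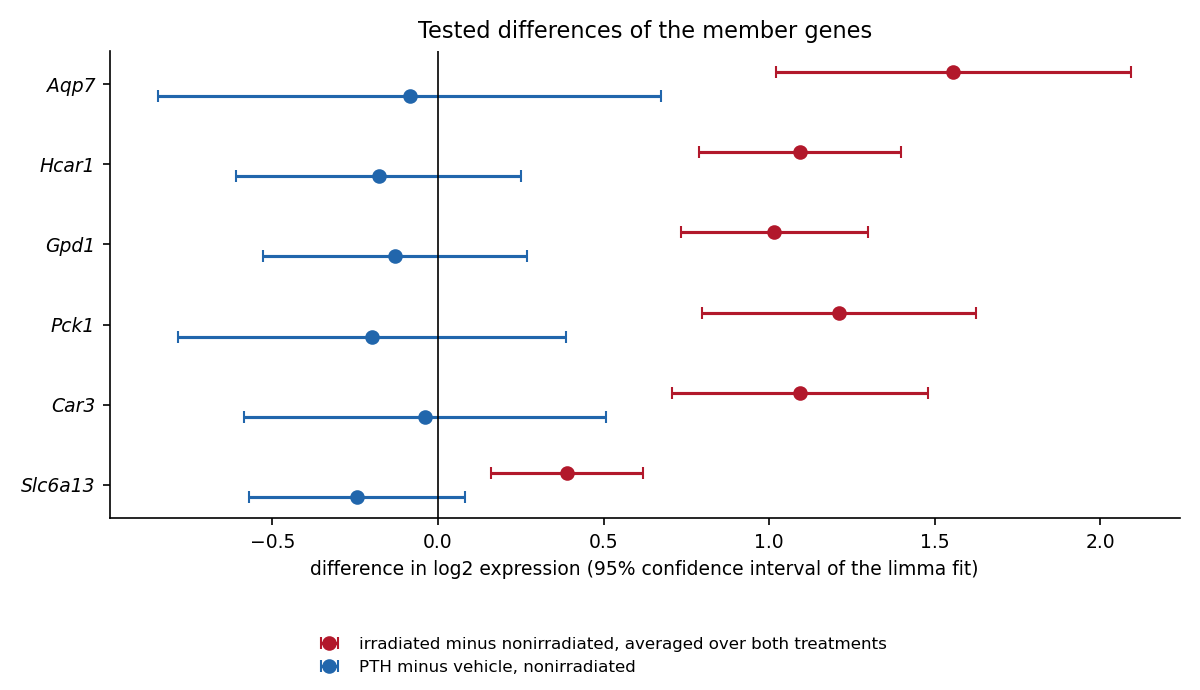
Differences in log2 expression of the 6 measured members (rows) with 95% confidence intervals from the limma fit, for irradiated minus nonirradiated marrow averaged over both treatments and for PTH minus vehicle in nonirradiated mice. The averaged irradiation differences lie between 0.39 and 1.56, and every interval of the nonirradiated PTH difference includes 0.

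Markers of white fat cells rose with irradiation along with the members. Of 16 measured white adipocyte markers (2 more were not analysed here), 11 were higher and 0 lower in irradiated marrow averaged over both treatments, with a median of 0.77 where the median of all genes was -0.01. Cidec, a lipid droplet protein, rose by 2.10 (SE 0.175) and Scd1, a fatty acid desaturase, by 1.69 (SE 0.152), with limma adjusted p of 2.3e-05 and 4.12e-05. The list mean was 8.07 ± 0.123 in irradiated PTH marrow, 8.56 ± 0.0672 in irradiated vehicle marrow, 7.36 ± 0.0958 in nonirradiated PTH marrow and 7.52 ± 0.140 in nonirradiated vehicle marrow (SD, n = 3). Its values were 8.21, 8.0 and 8.01 on the irradiated PTH arrays and 8.60, 8.48 and 8.59 on the irradiated vehicle arrays, which did not overlap. Unlike the member mean, the marker mean was not lowest in replicate 3 of either irradiated group. Between PTH and vehicle after irradiation the markers had a median difference of -0.49, with 0 of 16 called.

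With the adipocyte marker mean of the same array subtracted, Aqp7 was -0.84 ± 0.729 in irradiated PTH marrow, -0.13 ± 0.597 in irradiated vehicle marrow, -1.13 ± 0.114 in nonirradiated PTH marrow and -1.20 ± 0.115 in nonirradiated vehicle marrow (SD, n = 3). Its difference between PTH and vehicle after irradiation was then -0.72, and that of Hcar1 -0.53, Car3 -0.46, Pck1 and Slc6a13 -0.31 and Gpd1 -0.11. Averaged over both treatments, the irradiated minus nonirradiated value after this subtraction was 0.68 for Aqp7, 0.34 for Pck1, 0.22 for Hcar1 and Car3, 0.14 for Gpd1 and -0.49 for Slc6a13. Slc6a13 was the only member of the 6 whose averaged irradiation difference was smaller than that of the marker mean. These differences were not tested. The markers themselves had averaged irradiation differences from 0.01 for Cd36 to 2.10 for Cidec. The values after subtraction therefore depend on which markers are averaged.

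**Figure D3:**
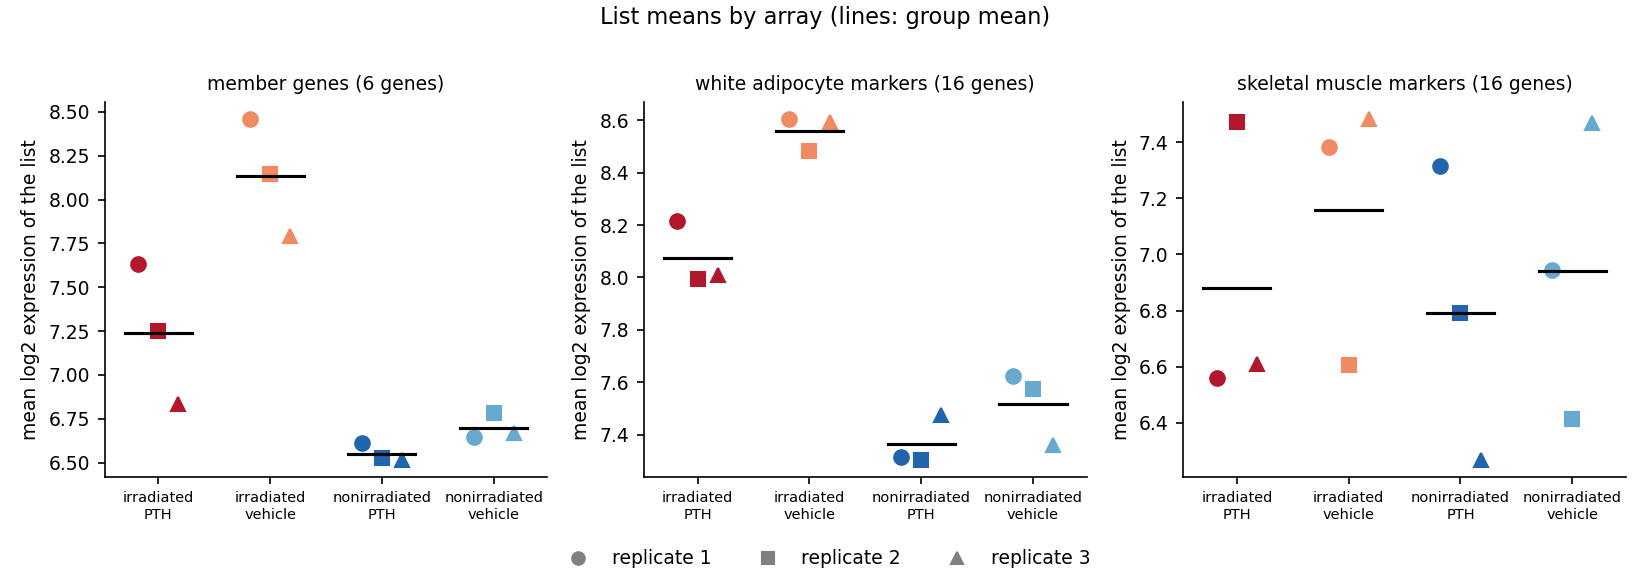
Mean log2 expression of the 6 measured members, 16 white adipocyte markers and 16 skeletal muscle markers on each array, with groups along the x axis, a symbol for each replicate number and a line at the group mean. The member and adipocyte means are highest on the irradiated vehicle arrays, and the muscle means spread from 6.27 to 7.48 without separating the groups.

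Skeletal muscle also expresses Car3, and muscle RNA was present in varying amounts. The mean of 16 muscle markers ranged from 6.56 to 7.47 in irradiated PTH marrow, 6.61 to 7.48 in irradiated vehicle marrow, 6.27 to 7.31 in nonirradiated PTH marrow and 6.41 to 7.47 in nonirradiated vehicle marrow. None of them was called in the averaged irradiation comparison, where the median was 0.10 and the largest difference was 0.53 for Actn3, an actin-binding protein of fast fibres (limma adjusted p = 0.209). Irradiated PTH replicate 2 had the most muscle signal of its group and irradiated vehicle replicate 2 the least. Car3 on both of these arrays lay between the other replicates. In nonirradiated vehicle marrow the replicates had the same order for muscle means (6.94, 6.41 and 7.47) and Car3 (10.45, 10.34 and 10.46). In nonirradiated PTH marrow replicate 1 was highest for both, with a muscle mean of 7.31 and Car3 at 10.74. Tnnt3, a fast troponin, differed by -0.33 between PTH and vehicle after irradiation (limma adjusted p = 0.906). In that comparison 14 of the 16 muscle markers had negative values, with a median of -0.32, and their part in the difference of Car3 was not tested.

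Hepatocyte and kidney tubule markers, of tissues that express Pck1 and Slc6a13, had a mean of 4.73 to 4.86 in irradiated PTH marrow, 4.67 to 4.76 in irradiated vehicle marrow, 4.67 to 4.81 in nonirradiated PTH marrow and 4.71 to 4.92 in nonirradiated vehicle marrow. Of 13 measured, 0 were called, and Umod, a protein of the kidney tubule, had the largest averaged irradiation difference at -0.098, while Apoa1, an apolipoprotein of liver, differed by 0.07. Of 9 brown adipocyte markers 0 were called, with a median of 0.02. Ucp1, the uncoupling protein that defines brown fat, had group means of 4.37 in irradiated PTH, 4.25 in irradiated vehicle, 4.17 in nonirradiated PTH and 4.41 in nonirradiated vehicle marrow. Cox8b, a respiratory chain subunit of brown fat and muscle, differed by 0.29 (limma adjusted p = 0.573). Stromal and fibroblast markers (14 measured) had a median of -0.12 with 0 called, including Vcam1, an adhesion protein of stromal cells, at 0.13 and Dcn, the matrix proteoglycan decorin, at -0.52. Of 10 endothelial markers, Emcn, a sialomucin of marrow sinusoids, rose by 0.81 (limma adjusted p = 0.023), the list median was 0.21, and Cdh5, the junction protein VE-cadherin, differed by 0.49 without passing (adjusted p = 0.149). Of 16 marrow haematopoietic markers, 5 were lower, led by the B cell gene Ms4a1 (-4.31, limma adjusted p = 1.36e-08), and 0 higher. Of 9 housekeeping genes 0 were called, with -0.066 for Actb and 0.30 for Pgk1.

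Few other genes of the glycerol pathway passed the test with irradiation. Of 18 measured genes of glycerol and glycerol 3-phosphate metabolism (1 more was not analysed here), 1 was higher and 2 lower in the averaged comparison (2.51% and 3.59% of all genes) and 15 did not pass, with a median of 0.11. Pdk4, the kinase that closes pyruvate dehydrogenase, rose by 1.46 (SE 0.194, limma adjusted p = 0.000696), with group means of 8.25 in irradiated PTH, 8.81 in irradiated vehicle, 7.07 in nonirradiated PTH and 7.07 in nonirradiated vehicle marrow. Gpam, the mitochondrial enzyme that adds the first fatty acid to glycerol 3-phosphate, fell by 0.84 (SE 0.150, adjusted p = 0.00521), and its group means were 6.55 in irradiated PTH, 7.01 in irradiated vehicle, 7.61 in nonirradiated PTH and 7.62 in nonirradiated vehicle marrow. Gpd1l, a close relative of Gpd1, fell by 0.51 (adjusted p = 0.0402), the opposite direction to Gpd1. Aqp3 and Aqp9, the other glycerol-conducting aquaporins on the list, had averaged differences of 0.10 and -0.20 and did not pass (adjusted p = 0.72 and 0.666). In nonirradiated mice the gene with the smallest p was Dgat2, an acyltransferase of triglyceride synthesis, at 0.44 (adjusted p = 1).

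Of 15 measured genes of lipolysis and its cAMP control (6 more were not analysed here), 3 were higher and 1 lower with irradiation, with a median of 0.13. Lipe, hormone-sensitive lipase, rose by 0.82 (SE 0.195, limma adjusted p = 0.0277), and its group means were 7.51 in irradiated PTH, 8.29 in irradiated vehicle, 7.20 in nonirradiated PTH and 6.97 in nonirradiated vehicle marrow. Abhd5, the co-activator of the first lipase of the pathway, rose by 0.56 (adjusted p = 0.0228), and Ptger3, a prostaglandin receptor that, like Hcar1, couples to an inhibitory G protein, rose by 0.93 (adjusted p = 0.000833). Pde3b, the phosphodiesterase that breaks down cAMP in fat cells, fell by 0.47 (adjusted p = 0.0442). Pth1r, the PTH receptor, had an averaged difference of 0.12 (adjusted p = 0.815). Between PTH and vehicle after irradiation, 13 of the 15 genes had negative values with a median of -0.18, and 0 of 19938 genes (0%) passed. Ptger3 had the smallest p of this list in nonirradiated mice as well, at -0.26 (adjusted p = 1).

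Of 11 measured genes of lactate and hydroxycarboxylic acid handling, 0 were called in either direction, with a median of 0.01 in the averaged comparison. Hcar2, the related receptor for nicotinic acid and ketone bodies, had an averaged difference of 0.09 (limma adjusted p = 0.669), against 1.09 for Hcar1. Ldhb, a lactate dehydrogenase subunit, had the smallest p of the list, at -0.49 (adjusted p = 0.0629), and Slc16a1 and Slc16a3, carriers of lactate across the cell membrane, differed by -0.32 (adjusted p = 0.405) and 0.01 (adjusted p = 0.992). In nonirradiated mice Ldhd, a dehydrogenase of D-lactate, had the smallest p, at -0.16 (adjusted p = 1). Of 10 other aquaporins, 0 were called, with a median of -0.05. Aqp1, the water channel of red cells and endothelium, had the smallest p, at -0.41 (adjusted p = 0.287), and in nonirradiated mice Aqp12, an aquaporin of the pancreas, at -0.19 (adjusted p = 1).

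Among 15 other carbonic anhydrases, 3 were higher and 1 lower with irradiation. Car5b, a mitochondrial form, rose by 1.67 (SE 0.182, limma adjusted p = 0.000179), with group means of 6.35 in irradiated PTH, 7.33 in irradiated vehicle, 5.01 in nonirradiated PTH and 5.33 in nonirradiated vehicle marrow. Car4, a form anchored at the cell surface, rose by 1.47 (adjusted p = 2.24e-05) and Car13, a cytosolic form, by 1.15 (adjusted p = 3.7e-05). Car1, the red cell form, fell by 1.26 (adjusted p = 0.000617). Between PTH and vehicle after irradiation, Car5b differed by -0.98, Car13 by -0.48 and Car4 by 0.09 (limma adjusted p of 0.844, 0.844 and 0.91), where Car3 differed by -0.95. Of all 19938 genes, 0 passed in that comparison. Car9 had the smallest p of the family in nonirradiated mice, at 0.42 (adjusted p = 1).

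Of 4 measured transporters related to Slc6a13, Slc6a12, the betaine and GABA transporter, fell by 0.79 with irradiation (SE 0.103, limma adjusted p = 0.00062), with group means of 6.50 in irradiated PTH, 6.67 in irradiated vehicle, 7.52 in nonirradiated PTH and 7.23 in nonirradiated vehicle marrow. The other 3, Slc6a6 for taurine, Slc6a8 for creatine and Slc6a11 for GABA, did not pass, with averaged differences of -0.34, -0.001 and -0.003. Slc6a12 also had the smallest p in nonirradiated mice, at 0.29 (adjusted p = 1).

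**Figure D4:**
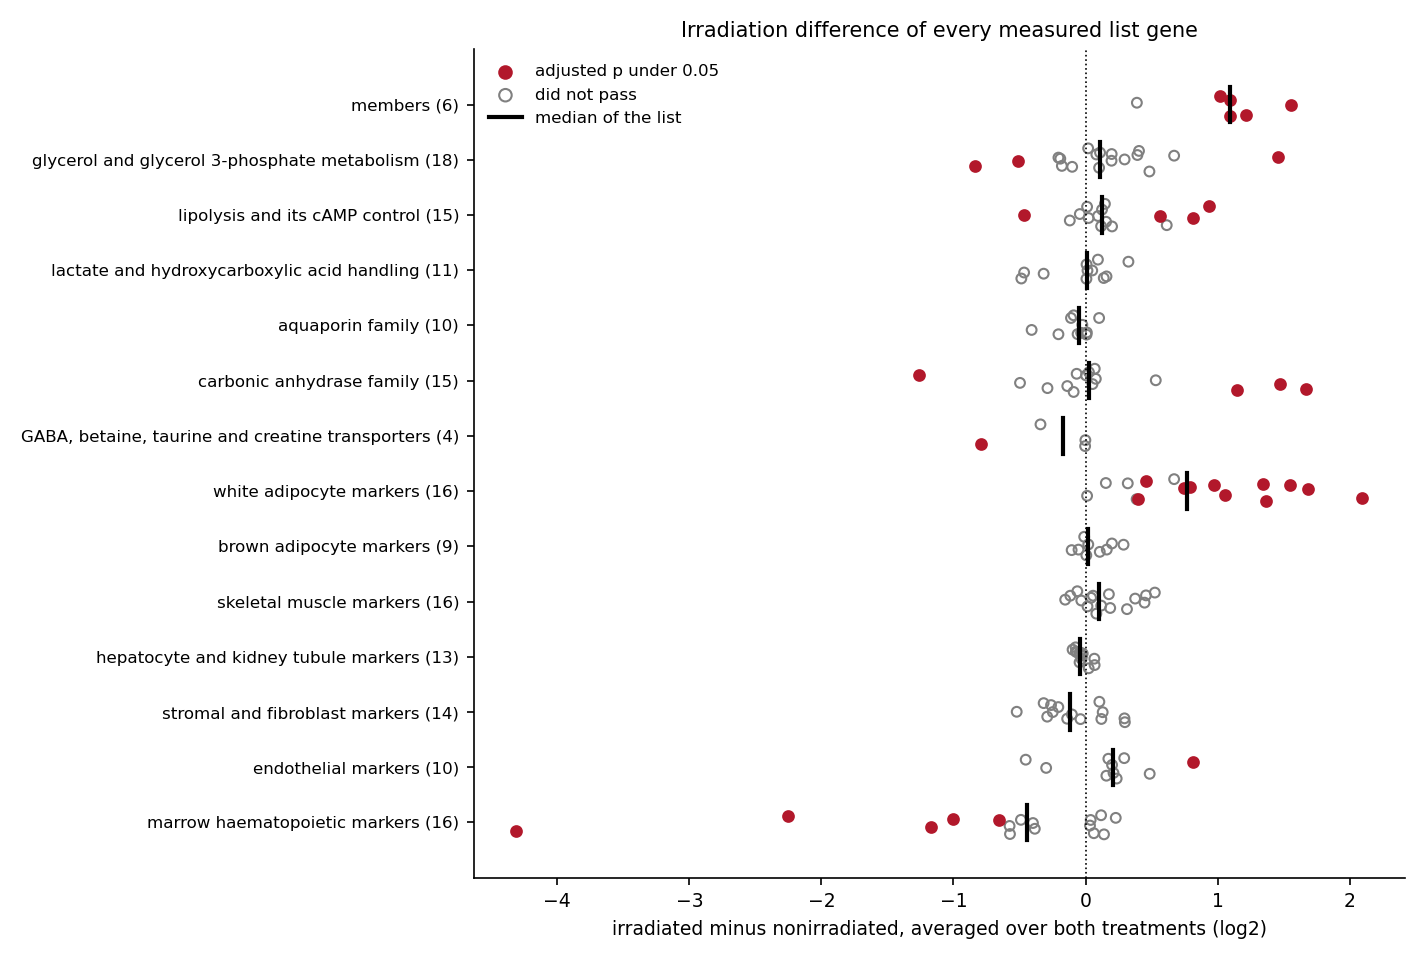
Averaged irradiation difference (irradiated minus nonirradiated, log2) of every measured gene of each list, with the number measured in brackets, filled points for genes with an adjusted p under 0.05 and a bar at the list median. The members and the white adipocyte markers have medians of 1.09 and 0.77, and the medians of the other lists lie between -0.44 and 0.21.

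The genes most like each member were found as the smallest root mean square difference from it over the 12 arrays, each gene being centred on its own mean. For Aqp7 they were Aoc3, an amine oxidase of fat and vascular cells, at 0.22, Tshr, the thyrotropin receptor, at 0.24 and Podxl, the sialomucin podocalyxin, at 0.28, where the median gene stood at 1.0. Genes found in this way resemble the member in their group differences by construction. Aoc3 and Tshr had averaged irradiation differences of 1.42 and 1.55 and PTH differences after irradiation of -1.28 and -1.09. For Hcar1 they were Pcdh9, a protocadherin (0.18), Plin4, a lipid droplet coat protein (0.20), and Svep1, a matrix protein (0.21). Car3 was nearest to Adhfe1, an alcohol dehydrogenase known from fat cells (0.17), then Pcdh9 and Svep1 (0.21 and 0.22). Gpd1 was nearest to Glb1l2 (0.18), Slc1a3, a glutamate transporter (0.20), and Pcdh9 (0.20), and Pck1 to Glb1l2 (0.19), the chemokine gene Cxcl9 (0.22) and the complement gene C4b (0.22). Slc6a13 was nearest to Lss, lanosterol synthase (0.19), Dnajc6 (0.19) and Btbd19 (0.20). Among the 14 different genes so named, 1 was on the white adipocyte list, which held 16 of the 19938 genes, and 0 were other members. Between members, the closest pairs were Hcar1 with Car3 and Hcar1 with Gpd1, at 0.22 and 0.23, and the farthest was Aqp7 with Slc6a13, at 0.69.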

How the data were processed

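The deposited table holds log2 values for 35556 array rows and 12 arrays. The submitters' processing notes name limma, affy and RMA without roles or versions. The log2 scale was read from the deposited values. Joint normalization of the arrays and the genome build are not given in the sources used here. RMA's summary of dim rows compresses their differences. The labels' protocols give 100 ng of RNA as input. No detection calls were used, and the number of arrays limits precision.

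Rows with 1 gene symbol in the platform annotation (21789) gave 19938 genes, with the highest-mean row standing for each gene. Symbols were updated through RefSeq gene identifiers, and 91 rows kept theirs. The model, fitted in limma 3.58.1 (R 4.3.3), held 4 group means over the 12 arrays with 8 residual degrees of freedom, default empirical Bayes moderation and Benjamini-Hochberg adjustment over all genes. Members, lists, tests and alternatives were chosen with earlier results of these data known. Named genes were the members, up to 4 called genes of each pathway list per tested comparison with the smallest p (or the 1 with the smallest p), the brightest and most changed gene of each marker list, and the 3 genes most like each member. Genes set beside them to answer a stated comparison (Pth1r, Hcar2, Aqp3, Aqp9, Slc16a1, Slc16a3, Ucp1, S100a8, the remaining Slc6 transporters) were picked with their values in view.

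Simulated data tested the fit, with 200 of 19938 genes changed. They were drawn from each gene's real mean and 1 real spread for all 4 groups, with independent normal noise. Spreads that differ between groups, as for Aqp7, and uneven sex were not simulated, so the fit was not checked for them. For the averaged irradiation comparison, 46.6%, 89% and 99.4% of changes sized 0.5, 1 and 2 (log2) were called. For PTH in nonirradiated mice, 14.9%, 66% and 94.5% were called. False calls were 5.78% of calls in the irradiation comparison and 5.2% in the PTH comparison.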

Additional observations from a re-analysis of the deposited data

How the results depend on the processing

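In the averaged irradiation comparison, 5 members were called, and 5 or 6 in each of 11 other settings. Aqp7, Hcar1, Gpd1, Pck1 and Car3 passed in all of these and in all 12 fits that left out 1 array, where the count was 5 to 6. Slc6a13 passed with a trended, robust variance (adjusted p = 0.0363), array weights (0.00224), the dimmest 25% of genes left out (0.0475), the replicate block (0.0479), sex as a term (0.0314) and without both narrow-range arrays (0.0244), and its adjusted p reached 0.135 without nonirradiated PTH replicate 1. Array weights raised the called pathway genes to 19, against 12, and all called genes to 2517, against 1216. Requiring a fold of at least 1.5 left 748. In nonirradiated mice 0 members were called in any setting, and 4 genes in all when only those groups were fitted. The median PTH difference of the members after irradiation was -0.87, from -1.10 to -0.67 without 1 array and from -0.91 to -0.67 in the other settings. The replicate block left both counts of called members within 1 of the values without it (6 and 0). The labels do not say that the numbers pair the arrays. Across all groups 10 of 18 same-number correlations of deviations from the group means were over 0.1 and 7 of 12 arrays correlated best with their own number. Same-number correlations ran from -0.651 to 0.596 (median 0.178), and different-number correlations from -0.597 to 0.628 (median -0.0846). Within the irradiated groups all 3 same-number correlations were over 0.1, and replicate 1 was the female-pattern array in both. In the nonirradiated groups the lowest same-number correlation was -0.167. Whether the numbers mark shared litters or days was not settled. No gene-level detection limit was available.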

Other observations

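Taken by the replicate numbers of the labels, which are not stated to pair the arrays, the PTH minus vehicle value after irradiation was negative for all 18 combinations of member and number. It was -1.13, -1.01 and -1.47 for Aqp7 at numbers 1, 2 and 3. For Gpd1 it was -0.54, -0.98 and -0.27. Same-number arrays of the irradiated groups correlated, across genes and after removal of each group's mean, at 0.144 to 0.57, and those of the nonirradiated groups -0.167 to 0.558. For arrays with different numbers the ranges were -0.509 to 0.396 and -0.597 to 0.509. Genes are not independent replicates, and these values repeat the contrast on which members were chosen.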
